A study of Mus musculus with 12 samples.

Results

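Epicardial and mesothelial markers are 9 genes commonly used to recognise the outer cell layer of the heart and its relatives on other organs: the transcription factor genes Wt1, Tbx18 and Tcf21, the surface protein gene Msln, the uroplakin genes Upk3b and Upk1b, and the keratin genes Krt8, Krt18 and Krt19. They were chosen by name and not by a rule on measured values, though earlier results of these data were known. All 9 were found among the 34174 genes of the table. They are described here in RNA from mouse cardiac stem cell cultures, cells grown out of the heart and kept on gelatin in medium with 10% serum at 37 °C, 21% oxygen and 5% CO2.

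The epicardium is a mesothelium, a flat epithelium that wraps the heart as pleura and peritoneum wrap the lungs and the gut. During heart development some of its cells lose their epithelial contacts, move into the muscle and become fibroblasts and mural cells of vessels, and Wt1, Tbx18 and Tcf21 are the transcription factor genes most used to trace them. Mesothelin and the uroplakins sit at the cell surface, and keratins form the intermediate filaments of simple epithelia, always from one type II and one type I chain.

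All cultures were of strain C57BL/6. One group is labelled wild-type and the other c-kitCre, a knock-in that places the Cre recombinase gene at the Kit locus, so that Cre should be made only in cells that use the Kit promoter. Each group has 3 numbered cultures, each culture has 2 libraries of total RNA depleted of ribosomal RNA, and the tables hold 1 merged value per culture and gene, so n = 3 throughout. The labels do not say how the cells were selected, how old the animals were, or whether the cultures came from separate animals. The p-values therefore measure only the spread between these cultures, which may be technical. The raw values of a culture summed to between 22371439 and 35963488. Levels are given as scaled reads, the deposited raw value multiplied by the culture's scale factor, and the authors' normalized values do not go below a floor of 4.41 scaled reads.

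Several properties of the cultures bear on all comparisons. Kit, the receptor gene that carries Cre in the knock-in, measured 3.38, 1.55 and 1.17 scaled reads in cultures labelled wild-type and 1732, 1738 and 1603 in those labelled c-kitCre. An insertion into the gene would not by itself be thought to raise it. Whether the labels or the cells of the cultures account for this difference was not tested. The groups are therefore named by their labels, and every direction rests on them. Cultures 2 and 3 labelled wild-type lay close together, with a median absolute log2 difference of 0.06 over 10631 genes, against 0.37 and 0.39 between each of them and culture 1, and 0.17 to 0.35 within the other group. They still differed by more than approximate counting error (median squared difference over Poisson variance 2.57) and were kept as separate samples. Culture 1 labelled wild-type stands apart from the other two, and several results below are given without it.

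The promoters of 5 of the 9 genes were found in the RefSeq table for build GRCm38.p6, and 4 are shown as pairs of genes of a kind. The genes of the first pair stood at unlike levels in cultures labelled wild-type only, and those of the second pair in all cultures. Each promoter window runs from 250 bases before the RefSeq start to 50 bases after it, 5′ to 3′ on the gene's strand. Capitals mark matches on either strand to 3 motifs: the TATA box TATAAA, the GC box GGGCGG, and the E-box CANNTG that basic helix-loop-helix factors such as Tcf21 bind. The first pair are the chromosome 15 neighbours Krt8 (chr15:102004293-102004592, minus strand) and Krt18 (chr15:102027966-102028265, plus strand), whose gene bodies are 23697 bases apart. The second pair are Tbx18 (chr9:87731211-87731510, minus strand), the member over 100 scaled reads in all cultures, and Tcf21 (chr10:22820094-22820393, minus strand), which was at or near 0 in all of them.
Krt8: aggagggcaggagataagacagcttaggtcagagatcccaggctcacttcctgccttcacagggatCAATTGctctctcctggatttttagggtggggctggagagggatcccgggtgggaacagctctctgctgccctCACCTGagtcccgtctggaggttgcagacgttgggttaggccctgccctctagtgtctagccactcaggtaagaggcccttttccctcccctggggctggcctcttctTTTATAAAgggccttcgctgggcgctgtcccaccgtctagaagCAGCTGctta
Krt18: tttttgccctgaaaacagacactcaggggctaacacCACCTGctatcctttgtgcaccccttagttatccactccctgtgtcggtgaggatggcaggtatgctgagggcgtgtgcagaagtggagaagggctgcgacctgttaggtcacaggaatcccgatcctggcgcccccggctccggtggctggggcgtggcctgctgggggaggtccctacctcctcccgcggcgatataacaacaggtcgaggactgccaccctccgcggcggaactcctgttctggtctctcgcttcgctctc
Tbx18: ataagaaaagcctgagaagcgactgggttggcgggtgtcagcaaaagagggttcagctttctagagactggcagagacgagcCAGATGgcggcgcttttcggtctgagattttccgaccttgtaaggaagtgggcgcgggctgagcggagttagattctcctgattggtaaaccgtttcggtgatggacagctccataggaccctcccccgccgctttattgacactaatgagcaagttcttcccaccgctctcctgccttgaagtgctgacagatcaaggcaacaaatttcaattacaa
Tcf21: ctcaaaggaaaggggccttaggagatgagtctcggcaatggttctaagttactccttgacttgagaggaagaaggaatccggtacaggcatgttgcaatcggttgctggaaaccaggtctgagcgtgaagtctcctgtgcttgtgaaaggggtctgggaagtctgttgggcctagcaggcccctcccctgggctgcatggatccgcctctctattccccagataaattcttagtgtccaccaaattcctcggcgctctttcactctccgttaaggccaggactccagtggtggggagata

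The Krt8 window holds 3 E-box matches and TATAAA on both strands, as 2 overlapping matches in the letters TTTATAAA. The overlapping matches begin at positions -3 and -1, so they lie across the RefSeq start. Krt18 holds 1 E-box match, Tbx18 holds 1 and Tcf21 holds 0 matches to any of the 3 motifs. TATAAA occurs in 13.6% of 32851 promoter windows of the same length, CANNTG in 72.3% and GGGCGG, which none of the 4 windows holds, in 35.7%. CG dinucleotides numbered 6 in Krt8, 17 in Krt18, 15 in Tbx18 and 8 in Tcf21, where the median window has 7. The starts of Krt8, Krt18 and Tcf21 in the GENCODE annotation lie further upstream than the RefSeq starts used for their windows. These matches describe the letters of the windows and were not tested against the RNA levels.

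In neither labelled group did the 9 markers stand high together. In cultures labelled wild-type Msln stood highest, Tbx18 followed, Krt8 and Krt19 were lower and uneven between cultures, and Wt1 lay near the floor. In the cultures labelled c-kitCre Tbx18 remained, Wt1 was higher, and Msln and Krt8 were low. Tcf21, Upk1b and Krt18 had means at or under the floor in both groups, and only Tbx18 exceeded 100 scaled reads in all 6 cultures. Of the 9 genes, 8 passed the filter on low values (1 scaled read or more on average, and over the floor somewhere), and Tcf21 did not.

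At an adjusted p under 0.05 (limma, two-sided, Benjamini-Hochberg over 24151 genes), Wt1 and Tbx18 rose in the cultures labelled c-kitCre, Msln and Krt8 fell, and 4 tested members did not pass. That is 2 higher where 16.2% of all tested genes were higher, 2 lower where 19.3% were lower, and 4 of 8 in either direction where 35.5% were called, with a median log2 difference of -0.06 over these 8 and 0.04 over all genes tested. The groups did not overlap in 5 of the 8 (Wt1, Tbx18, Msln, Upk3b and Krt8), against 53.2% of all tested genes. Groups that do not overlap were thus common in this comparison.

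**Figure D1:**
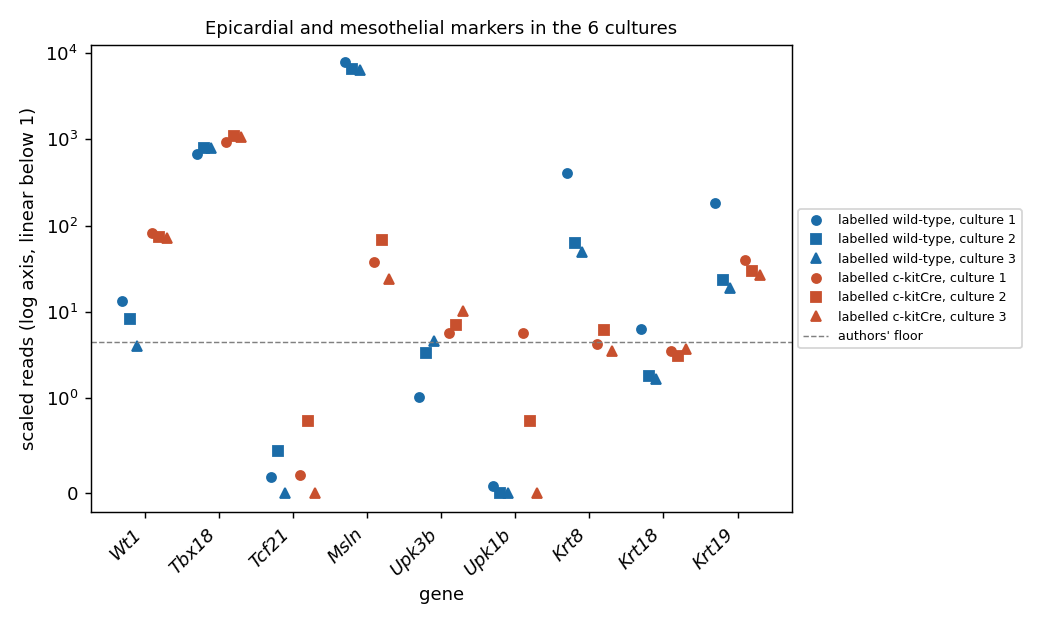
Scaled reads of the 9 epicardial and mesothelial markers on a log axis that is linear below 1, with 1 point per culture, blue for the cultures labelled wild-type and orange for those labelled c-kitCre; the dashed line is the authors' floor at 4.41. Msln falls from between 6329 and 7895 to between 24.1 and 68.5, Wt1 rises from between 3.96 and 13.2 to between 71.7 and 81.0, and Tcf21 and Upk1b lie at or near 0 in most cultures.

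Among the transcription factors, Wt1 (ENSMUSG00000016458, chr2:105126529-105173616 in build mm10), a zinc finger factor required for the epicardium to form and give rise to migrating cells, measured 13.2, 8.10 and 3.96 scaled reads in cultures labelled wild-type and 81.0, 74.1 and 71.7 in those labelled c-kitCre. Every culture of the second group lay above every culture of the first, and the 3 high values were close together. The means were 8.40 ± 4.61 and 75.6 ± 4.85 (SD, n = 3), a 9.0-fold rise. On the floored log2 scale the difference was 3.21 ± 0.40 (SE; limma, adjusted p = 0.00184). The authors' deposited fold of 9.23 is this same difference on the linear scale. Both come from the same normalized values, here and for Msln and Krt8, so the fold is not separate evidence. In bulk RNA, more cells of a type and more RNA per cell cannot be told apart, here and below. Wt1 ranked 768th by log2 difference among the genes called higher.

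Tbx18 (ENSMUSG00000032419, chr9:87702800-87731260), a T-box factor of the embryonic epicardium and of mural cells, measured 673, 800 and 794 scaled reads in cultures labelled wild-type and 928, 1111 and 1055 in those labelled c-kitCre. The groups did not overlap, but the gap between them was small. The means of 756 ± 71.5 and 1031 ± 93.7 (SD, n = 3) differed 1.36-fold, with a log2 difference of 0.45 ± 0.13 (SE; limma, adjusted p = 0.0429). That call was lost in 14 of 18 alternative settings, and median centring over all genes took the log2 difference to 0.10 with an adjusted p of 0.606 (limma). A gene on the opposite strand, D030062O11Rik, shares 1976 bases with the Tbx18 locus, and whether strand was used in counting is not given in the sources used here.

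Tcf21 (ENSMUSG00000045680, chr10:22817281-22820174), a basic helix-loop-helix factor of epicardial cells that become cardiac fibroblasts, measured 0.176, 0.447 and 0 scaled reads in cultures labelled wild-type and 0.191, 0.758 and 0 in those labelled c-kitCre. No culture reached 1 scaled read, no test was made, and a difference was not detectable at this depth. Its locus also has an antisense partner, Gm10824, which spans all of it.

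Msln was the member with the largest difference. Mesothelin (ENSMUSG00000063011, chr17:25748613-25754378), a lipid-anchored glycoprotein of the mesothelial surface, measured 7895, 6627 and 6329 scaled reads in cultures labelled wild-type and 37.9, 68.5 and 24.1 in those labelled c-kitCre. The lowest culture of the first group was thus far above the highest of the second, and the low group varied more in relative terms. The mean fell from 6950 ± 832 to 43.5 ± 22.8 (SD, n = 3), to 0.626% of the first mean, a 160-fold difference. The log2 difference was -7.45 ± 0.38 (SE; limma, adjusted p = 0.000107), and the authors' deposited 174-fold difference is this same value on the linear scale. Msln ranked 7th by log2 difference among the genes called lower, and 17 of the genes called lower fell at least 100-fold.

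Per kilobase of the longest annotated transcript, Msln measured 3210 ± 384 scaled reads in cultures labelled wild-type and 20.1 ± 10.5 in the others (SD, n = 3). That level ranked 425th of 20466 protein-coding genes in the first group and 11576th in the second. Tbx18 came next among the members in cultures labelled wild-type, at 161 ± 15.3 per kilobase (rank 7750), and was the member with the highest level in the cultures labelled c-kitCre, at 220 ± 20.02 (rank 6243). In the first group the order then ran from Krt8 at 88.3 ± 103 through Krt19 at 47.2 ± 58.7 to Wt1 at 2.72 ± 1.49, and the spreads of Krt8 and Krt19 overlap. In the second group Wt1, Msln and Krt19 stood together at 24.5 ± 1.57, 20.1 ± 10.5 and 20.2 ± 4.29 per kilobase, with overlapping spreads, while Krt8 and Krt18 measured 2.35 ± 0.67 and 2.36 ± 0.22.

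The uroplakins were scarce. Upk3b (ENSMUSG00000042985, chr5:136038496-136046487), a transmembrane uroplakin that marks mesothelium beside its role in the bladder lining, measured 1.03, 3.33 and 4.53 scaled reads in cultures labelled wild-type and 5.66, 7.01 and 10.1 in those labelled c-kitCre. The groups did not overlap, yet all values lay within a few reads of the floor. The log2 difference on the floored scale was 0.68 ± 0.22 (SE; limma, adjusted p = 0.0590) and did not pass. It passed without culture 2 labelled c-kitCre (adjusted p = 0.0311, limma) and with median centring on genes of at least 50 scaled reads (adjusted p = 0.0219, limma).

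Upk1b (ENSMUSG00000049436, chr16:38773184-38800328), a tetraspanin that pairs with other uroplakins, measured 0.075, 0 and 0 scaled reads in cultures labelled wild-type and 5.59, 0.758 and 0 in those labelled c-kitCre. A single culture exceeded the floor, both group means lay under it, and no fold is given (limma, adjusted p = 0.653). Of the 4 other uroplakin genes in the table, 2 passed the filter and neither was called: Upk1a measured 28.2 ± 9.06 and 17.9 ± 2.79 scaled reads (SD, n = 3; limma, adjusted p = 0.231), and Upk3bl, a gene like Upk3b, 11.5 ± 6.84 and 6.17 ± 5.68 (adjusted p = 0.363).

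Among the keratins, Krt8 (ENSMUSG00000049382, chr15:101996698-102004482), the type II chain of simple epithelia, measured 405, 63.2 and 49.9 scaled reads in cultures labelled wild-type and 4.24, 6.07 and 3.50 in those labelled c-kitCre. The groups did not overlap, the second group lay at about the floor, and culture 1 was far above cultures 2 and 3 in the first. The means were 173 ± 202 and 4.60 ± 1.32 (SD, n = 3), and the first mean is 56.5 without culture 1. The log2 difference was -4.50 ± 0.81 (SE; limma, adjusted p = 0.00694), and the authors' deposited 22.7-fold difference is this same value on the linear scale. Without culture 1 the log2 difference was -3.55 and still called. Krt8 ranked 99th among the genes called lower.

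Its usual partner Krt18 (ENSMUSG00000023043, chr15:102028180-102032027), the type I chain that pairs with it in simple epithelia, measured 6.32, 1.79 and 1.65 scaled reads in cultures labelled wild-type and 3.46, 3.03 and 3.66 in those labelled c-kitCre. Again culture 1 labelled wild-type was the high one, and only that culture exceeded the floor. The means of 3.25 ± 2.66 and 3.39 ± 0.32 (SD, n = 3) are both under the floor, so no fold is given (limma, adjusted p = 0.583). Values of both genes are uncertain where counting could split reads with near-identical copies: the pseudogene Krt8-ps matches the Krt8 transcript at 98.6% over 941 bases, and Gm5200 matches that of Krt18 at 90.5% over 1267 bases. Krt8 also overlaps Gm36026, a non-coding gene on the other strand, by 271 bases.

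Krt19 (ENSMUSG00000020911, chr11:100140810-100148665), a small type I keratin of simple epithelia and mesothelium, measured 181, 23.4 and 18.7 scaled reads in cultures labelled wild-type and 39.4, 29.4 and 26.6 in those labelled c-kitCre. The values of the second group lay between culture 1 and the other cultures of the first. The means were 74.5 ± 92.5 and 31.8 ± 6.76 (SD, n = 3), with a log2 difference of -0.45 ± 0.89 (SE; limma, adjusted p = 0.715). One culture sets the sign: without culture 1 the first mean is 21.0, and the log2 difference turns to 0.58 (limma, adjusted p = 0.208).

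**Figure D2:**
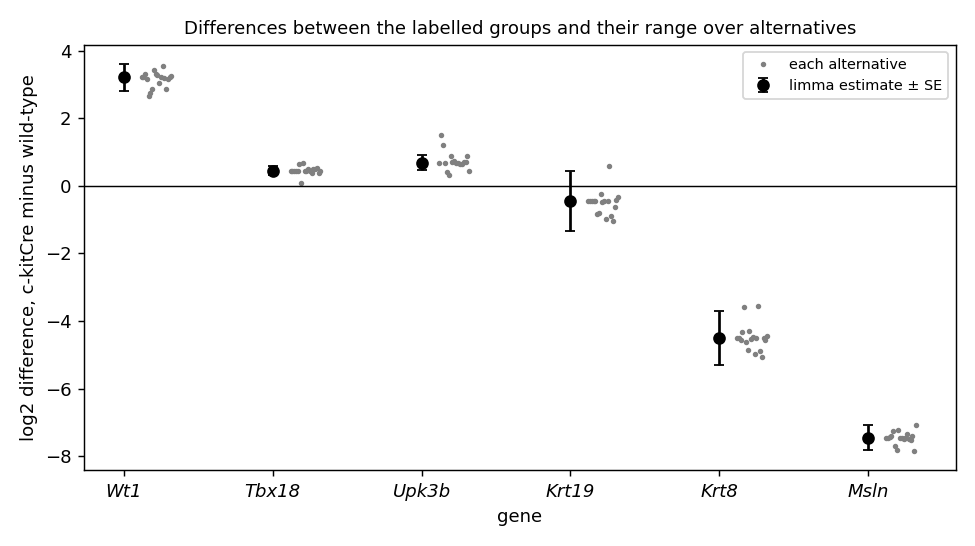
Log2 difference of 6 markers, cultures labelled c-kitCre minus cultures labelled wild-type: black points with bars give the limma estimate ± SE, and grey points each alternative setting. Msln, Krt8 and Wt1 stay far from 0 in all of them, Tbx18 comes down to 0.10 in one, and Krt19 crosses 0 when culture 1 labelled wild-type is left out.

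Since a type II chain needs a type I chain to form a filament, the balance of Krt8 to the sum of Krt18 and Krt19 was compared within each culture. It is not the balance of all chains, since it leaves out other keratins given below, such as Krt7, Krt80, Krt4 and Krt13. Scaled reads of Krt8 were 2.16, 2.51 and 2.45 times that sum in cultures labelled wild-type, and 0.0989, 0.187 and 0.116 times in those labelled c-kitCre. Culture 1, so far apart in the level of each keratin, was not apart in their ratio. The mean log2 ratio was 1.24 ± 0.12 in the first group and -2.96 ± 0.48 in the second (SD, n = 3), a difference of -4.20. The exact two-sided permutation p was 0.1, and a design of this size can reach no smaller value. Taken per kilobase of transcript, the difference of the log2 ratio was -4.21 (exact permutation p = 0.1). The ratio uses scaled reads without the floor. Krt18 had means under the floor in both groups, and Krt8 lay under it in cultures 1 and 3 labelled c-kitCre (4.24 and 3.50). On the floored log2 scale Krt8 alone differed by -4.50 and Krt19 by -0.45, so the ratio mostly repeats the fall of Krt8.

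Of 13 other keratin genes, 9 passed the filter, 1 rose, 2 fell and 6 were not called. Those called made up 33.3%, close to the 35.5% of all tested genes. Krt4, a type II keratin of stratified epithelia such as the oesophagus, measured 44.6, 0.447 and 2.02 scaled reads in cultures labelled wild-type and 336, 4827 and 1206 in those labelled c-kitCre (log2 difference 7.04 ± 1.28, SE; limma, adjusted p = 0.00740), with a wide spread in both groups. Krt80, another type II chain, fell from 371, 1111 and 1207 to 91.8, 64.1 and 73.0 (log2 difference -3.39 ± 0.48; adjusted p = 0.00294). Krt14, the type I chain of basal epithelial cells, fell from 23.2, 58.7 and 79.2 to 2.29, 3.03 and 0.352 (adjusted p = 0.00261, limma). Per kilobase, Krt4 stood highest of the 9 plotted keratins in the cultures labelled c-kitCre.

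Krt13, the type I chain usually found with Krt4, measured 1050, 112 and 117 scaled reads in the first group and 92.9, 33.4 and 50.2 in the second (limma, adjusted p = 0.130), again with culture 1 labelled wild-type apart. Krt10, a type I chain of the upper epidermis, had means of 60.6 ± 10.8 and 40.6 ± 17.8 (SD, n = 3; adjusted p = 0.247, limma). Krt7, which was chosen after its values were seen as another type II chain of simple epithelia and mesothelium, measured between 56.9 and 108 in all 6 cultures (adjusted p = 0.717, limma). Median centring over all genes raised the number of keratins of this list called lower from 2 to 5. It also raised the number of all genes called lower from 4668 to 8569.

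**Figure D3:**
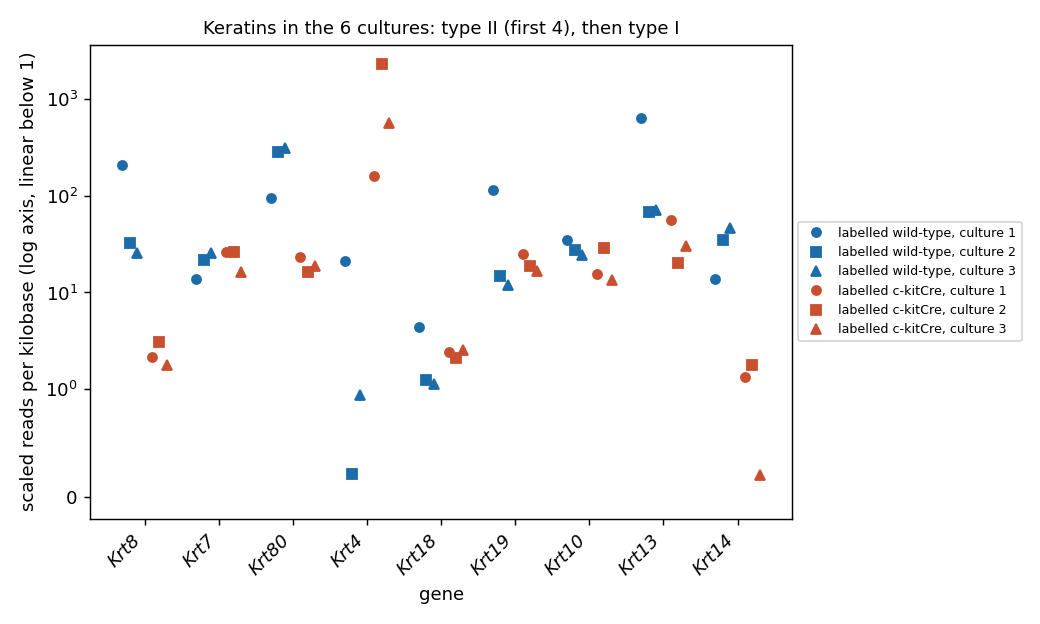
Scaled reads per kilobase of the longest annotated transcript for 4 type II keratins (Krt8, Krt7, Krt80, Krt4) and 5 type I keratins, on a log axis that is linear below 1, with 1 point per culture. Culture 1 labelled wild-type is the highest of its group for Krt8, Krt18, Krt19, Krt10, Krt13 and Krt4, and the lowest for Krt7, Krt80 and Krt14. Krt7 shows no separation between the groups, and Krt4 is higher in the cultures labelled c-kitCre.

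Of 20 other genes used to recognise epicardium or mesothelium, 15 passed the filter, of which 5 rose, 1 fell and 9 were not called. That is 40.0% called, where 35.5% of all tested genes were called (16.2% higher and 19.3% lower), and the median log2 difference was 0.33 against 0.04 for all genes tested. The difference between the list and all genes was not tested. Bnc2, a zinc finger factor, measured 6.57, 3.04 and 4.58 scaled reads in cultures labelled wild-type and 630, 543 and 616 in those labelled c-kitCre (log2 difference 6.69 ± 0.29, SE; limma, adjusted p = 7.6e-05). Its relative Bnc1, made in mesothelium and germ cells, rose from 0.976, 2.23 and 3.30 to 29.7, 22.3 and 22.7 (adjusted p = 0.000321, limma). The second group lay wholly above the first for both.

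Gata6 and Gata4, zinc finger factors of the heart and of the epicardium, also rose. Gata6 measured 128, 88.1 and 73.7 scaled reads in cultures labelled wild-type and 1384, 1584 and 1325 in those labelled c-kitCre (log2 difference 3.92 ± 0.24, SE; limma, adjusted p = 0.000163). Gata4 measured 835, 784 and 804 against 2294, 2247 and 1963 (log2 difference 1.42 ± 0.11; adjusted p = 0.000352). Gata4 was thus well expressed in both groups, and Gata6 mainly in the second. The fifth gene that rose was Pdpn, podoplanin of mesothelial and lymphatic surfaces, with 3076, 1543 and 1534 against 6718, 6626 and 5674 (adjusted p = 0.00580, limma), named because the count was small.

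Podxl, podocalyxin of the free surface of mesothelial cells and podocytes, fell from 3189, 2266 and 2288 scaled reads to 1036, 977 and 777 (log2 difference -1.47 ± 0.19, SE; limma, adjusted p = 0.00210). Markers at or near 0 in both groups, all chosen after their values were seen, were Aldh1a2, the retinoic acid synthase of the epicardium (0 in 5 cultures and 0.0866 in 1), Muc16, a mucin of the mesothelial surface (0 in 5 cultures and 1.06 in 1), Calb2, calretinin (at most 1.83), and Gpm6a (at most 1.06). With wild-type culture 1 left out, 2 genes of this list fell instead of 1, and 5 rose as before. The share called was then 46.7%, against 37.5% of all genes.

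**Figure D4:**
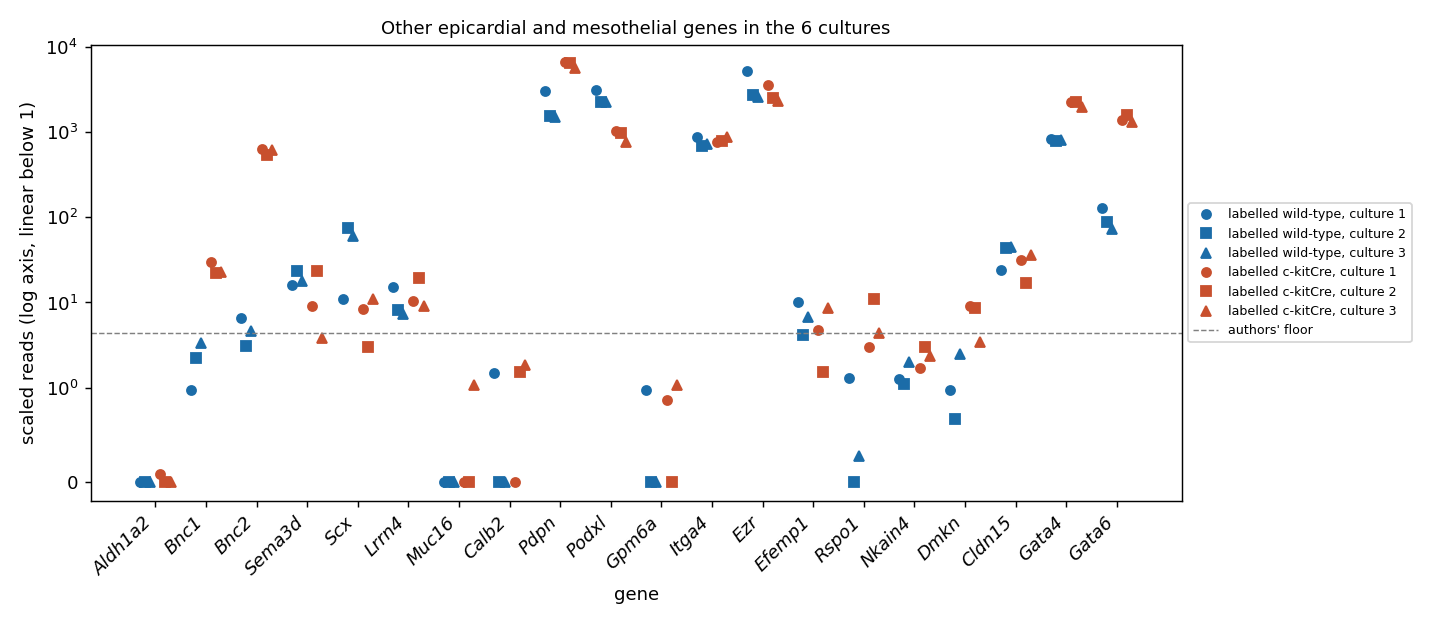
Scaled reads of 20 other epicardial and mesothelial genes on a log axis that is linear below 1, with 1 point per culture, blue for the cultures labelled wild-type and orange for those labelled c-kitCre, and the authors' floor dashed. The second group is above the first for Bnc1, Bnc2, Pdpn, Gata4 and Gata6 and below it for Podxl, and Aldh1a2, Muc16, Calb2 and Gpm6a lie near 0.

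Of 6 genes related in sequence to members, 4 passed the filter, and 1 rose and 1 fell. This is 50% of the tested relatives, where 35.5% of all tested genes were called. Tbx20, a T-box factor of the heart, measured 3.62, 2.68 and 5.72 scaled reads in cultures labelled wild-type and 115, 93.7 and 113 in those labelled c-kitCre (log2 difference 4.42 ± 0.26, SE; limma, adjusted p = 0.000162). Tbx15, the closest T-box relative of Tbx18, had means of 575 ± 7.47 and 563 ± 163 (SD, n = 3; adjusted p = 0.825, limma). Mslnl, a mesothelin-like gene, moved in the direction of Msln, from 32.5, 97.2 and 90.3 to 8.12, 2.22 and 4.08 (log2 difference -3.49 ± 0.51; adjusted p = 0.00330, limma). Msc and Tcf15, relatives of Tcf21, did not pass the filter.

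Of 8 tested genes reported as targets of the WT1 protein, 2 were higher, 1 was lower and 5 were not called. The share called was 37.5%, close to the 35.5% of all tested genes. Nes, the intermediate filament nestin, measured 457, 215 and 188 scaled reads in cultures labelled wild-type and 1292, 867 and 1317 in those labelled c-kitCre (limma, adjusted p = 0.00677). Spry1, an inhibitor of receptor tyrosine kinase signalling, measured 0.488, 0.298 and 1.14 against 28.3, 192 and 52.8 (adjusted p = 0.00657, limma), and Podxl fell as given above. Snai1 had means of 301 ± 47.7 and 398 ± 131 (SD, n = 3; adjusted p = 0.357, limma).

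Retinoic acid is made and sensed by the epicardium, and of 12 tested genes of that pathway 2 rose, 2 fell and 8 were not called. Calls thus covered 33.3% of this list and 35.5% of all tested genes. Crabp1, which binds retinoic acid in the cytoplasm, measured 1.69, 4.47 and 0.825 scaled reads in cultures labelled wild-type and 2133, 2204 and 1826 in those labelled c-kitCre (log2 difference 8.86 ± 0.22, SE; limma, adjusted p = 3.85e-05). Rdh10, which oxidises retinol, fell from 1024 ± 295 to 304 ± 55.7, and Stra6, a retinol transporter, from 15.5 ± 2.94 to 3.72 ± 2.03 (SD, n = 3; adjusted p = 0.00309 and 0.00445, limma). Without wild-type culture 1, 3 of these genes rose and 4 fell, which is 58.3% called against 37.5% of all genes.

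Of 22 tested genes of epithelial junctions and their regulators, 2 rose, 2 fell and 18 were not called, which is 18.2% called where 35.5% of all tested genes were. Grhl1, a grainyhead factor of epithelia, fell from 36.2, 88.7 and 88.2 scaled reads to 4.33, 1.52 and 4.73 (log2 difference -3.79 ± 0.41, SE; limma, adjusted p = 0.00110). Ocln, occludin of tight junctions, fell from 74.2, 12.4 and 12.0 to 1.45, 2.64 and 5.31 (adjusted p = 0.0498, limma). Spint1, a protease inhibitor, rose from 6.02 ± 2.18 to 30.8 ± 12.5, and the protease gene Prss8 from 6.43 ± 2.52 to 13.4 ± 1.63 (SD, n = 3; adjusted p = 0.00890 and 0.0278, limma). Without wild-type culture 1, 5 genes of the list fell instead of 2, and 31.8% of the list was called against 37.5% of all genes. Cdh1, E-cadherin, named as the defining gene of epithelial contacts, stood between 5.41 and 15.0 in all cultures, and Epcam did not pass the filter.

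Among genes whose proteins tie keratin filaments to desmosomes or to the rest of the cell, 3 of 11 tested rose and 3 fell. This is 54.5% called, where 35.5% of all tested genes were, and the difference was not tested. Pkp1 and Pkp2, plakophilins of the desmosome, rose from 25.1 ± 3.72 to 274 ± 25.0 and from 9.99 ± 1.46 to 141 ± 65.8 scaled reads (SD, n = 3; limma, adjusted p = 0.000291 and 0.00109). Fam83h, a protein that binds keratins, fell from 652 ± 35.6 to 99.2 ± 37.8, Ppl, periplakin, from 1372 ± 441 to 274 ± 112, and Jup, plakoglobin, from 700.1 ± 108 to 252 ± 81.0 (adjusted p = 0.00159, 0.00335 and 0.00905, limma). Dsg2, a desmosomal cadherin, was the third that rose, from 23.4, 34.6 and 27.2 to 63.9, 82.0 and 53.3 (adjusted p = 0.0276, limma).

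Regulators and markers of the loss of epithelial contacts all passed the filter and stood over 100 scaled reads in all 6 cultures. Of these 9 genes, 4 rose, 1 fell and 4 were not called, with a median log2 difference of 0.59. Calls covered 55.6% of them and 35.5% of all tested genes, a difference that was not tested. Cdh2, N-cadherin, rose from 2279 ± 77.2 to 4623 ± 619 scaled reads and Zeb2, a repressor of epithelial genes, from 2568 ± 442 to 5658 ± 652 (SD, n = 3; limma, adjusted p = 0.00216 and 0.00307). Fn1, fibronectin, and Twist1 also rose (log2 differences 1.32 ± 0.30 and 0.83 ± 0.26, SE; adjusted p = 0.0168 and 0.0489), and Twist2 fell by 1.82 on the log2 scale (adjusted p = 0.00434, limma). With wild-type cultures 2 and 3 averaged as 1 culture, 2 of these genes rose instead of 4. The share called was then 33.3%, against 25.0% of all genes.

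Markers of other cell types differed between the same groups, where 35.5% of all tested genes were called (16.2% higher and 19.3% lower). Of 10 fibroblast genes, 9 rose and 1 fell (Ddr2), and their summed level ran from 50525 to 58475 scaled reads in cultures labelled wild-type and from 174771 to 243163 in those labelled c-kitCre. Dcn, decorin, rose from 92.1, 24.1 and 29.9 to 13036, 9299 and 11408, and Thy1 from 3.52, 4.69 and 2.67 to 3547, 3096 and 3143 (limma, adjusted p = 0.000183 and 3.26e-05). Of 9 pericyte and smooth muscle genes, 4 rose (Acta2, Tagln, Cnn1 and Rgs5) and 0 fell, which is 44.4% called. Their sums ran from 1380 to 2392 in the first group and from 4238 to 6768 in the second. Acta2, smooth muscle actin, rose from 69.3 ± 30.6 to 2044 ± 894 and Tagln from 26.8 ± 4.72 to 815 ± 297 (SD, n = 3; adjusted p = 0.00104 and 0.000291, limma). The part of such cells in the differences of the 9 epicardial and mesothelial markers was not tested.

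Endothelial genes summed to 506 to 851 scaled reads in cultures labelled wild-type and 888 to 1052 in the others. Of 7 tested, 2 were higher (Cdh5 and Tie1) and 0 lower, which is 28.6% called where 35.5% of all tested genes were. Most of the endothelial sum was Vwf, at 668 ± 209 and 874 ± 89.9 (SD, n = 3), which was not called (limma, adjusted p = 0.250). Cdh5, VE-cadherin, stood at 3.29 ± 0.72 and 12.8 ± 0.92, and Kdr at no more than 6.07. Tie1 measured 0.690, 3.28 and 4.10 against 6.25, 6.34 and 5.55, all within a few reads of the floor. Leukocyte genes summed to 168 to 199 and to 325 to 524, most of it Cd68, which was not called, and Csf1r. Of 5 tested, 1 was higher (Csf1r), which is 20% called, and Ptprc, the pan-leukocyte gene, was at most 2.40. Cardiomyocyte genes summed to 2171 to 4081 and to 496 to 837, most of it Tnnt2 and Ttn. Of 8 tested, 1 was lower (Tnnt2), which is 12.5% called. Myh6, the main adult myosin of heart muscle cells in mice, was at most 8.40. None of 7 mast cell genes passed the filter, 3 of them (Cpa3, Mcpt4 and Ms4a2) were listed at 0 in all cultures, and their sum was at most 3.31. Of 8 genes used for cardiac stem cells, 3 rose (Kit, Gata4 and Isl1) and 3 fell (Bmi1, Ly6a and Tert), which is 75% called. Ly6a, which encodes Sca-1, fell from 3002 ± 272 to 729 ± 45.8, and Tert from 59.0 ± 36.4 to 2.03 ± 1.99 (SD, n = 3; adjusted p = 0.000147 and 0.00165, limma).

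Krt8 was 6.42 times and Krt19 7.75 times as high in culture 1 labelled wild-type as in the next culture of the group. Of 12795 genes whose mean in that group reached 50 scaled reads, 66 (0.516%) were at least as far above the next culture as Krt8, and 56 at least as far as Krt19. A 3-fold or larger excess in culture 1 was seen in 395 of 16548 genes with a mean of at least 10 (2.39%), a limit set after the data were seen. The means for these limits include culture 1, so a gene can reach them through that culture alone, which raises the shares. Without culture 1 the means of Krt4, Elf3, Cldn6 and Rgs5, counted below, were 1.23, 9.02, 6.97 and 8.64. Krt19, at 21.0 without it, reached the limit of 50 only through culture 1. Among genes at that level it held for 2 of 4 members (Krt8 and Krt19), 2 of 6 other keratins (Krt4 and Krt13), 4 of 8 epithelial junction genes and regulators (Elf3, Ocln, Grhl2 and Cldn6), and 0 of 10 other epicardial and mesothelial genes. It also held for 1 of 8 keratin linkers (Pkp3), 2 of 7 fibroblast genes (Pdgfra and Dcn), 1 of 2 endothelial genes (Pecam1), 1 of 7 pericyte and smooth muscle genes (Rgs5) and 1 of 10 retinoic acid genes (Dhrs3), so the excess was not confined to epithelial genes. In the lists of other uroplakins, relatives of members, transition genes, WT1 targets, cardiac stem cell, leukocyte and cardiomyocyte genes it held for 0. These shares were not tested. Genes lower in culture 1 were not counted. Krt80 (371 against 1111 and 1207), Krt14 (23.2 against 58.7 and 79.2) and Grhl1 (36.2 against 88.7 and 88.2) were lowest there. Msln and Tbx18 were within 1.25-fold and 1.19-fold between the highest and lowest cultures of that group.

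The genes whose profiles over the 6 cultures lay nearest to each member were taken from 11495 genes whose mean over all cultures reached 50 scaled reads, by Euclidean distance between centred log2 values. Nearest to Msln were Cdh13 (distance 0.96) and Card10 (1.10), both lower in the cultures labelled c-kitCre. Wt1 was nearest to Gbp7 (0.42), Adora2b (0.44) and Irf5 (0.44), all of which rose. Krt8 lay nearest to Pbp2 (0.39), Ccdc129 (0.64) and Bpifb4 (0.95), each highest in culture 1 labelled wild-type, and Krt19 to Rgs17 (0.90), S100a16 (0.95) and Apol9a (1.02), which were also highest there. Tbx18 lay nearest to Mboat7 (0.08), Ube2r2 (0.09) and Acbd3 (0.13). For Upk3b they were Stau2 (0.26), Acad12 (0.30) and Nav1 (0.30). The profiles of Upk1b and Krt18 are mostly floor, and their nearest genes (Gtpbp2, Agtpbp1 and Mier1, and Ttc21b, Cnpy4 and Skp1a) were not called. Likeness over 6 cultures in 2 groups is a description only.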

How the data were processed

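Total RNA depleted of ribosomal RNA (1 µg, integrity number 8 or higher) was read in pairs of 100 bp, per the labels' protocols. Build mm10 and DESeq, its version unstated, appear in the submitters' processing notes. For the aligner, the annotation and the use of strand, the sources used here say nothing.

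Per the file headers, the deposited table gives a raw and a normalized value for each of 6 cultures. The raw values are not whole numbers and were treated as a deposited signal, not as counts. The way the 2 libraries of each culture were merged is unknown, so no counting interval is given for single values. The deposited normalized values are log2 values. As worked out from the values, they are log2 of the raw value multiplied by a factor for each culture (0.825 to 1.52), floored at 4.41 (2.14 on the log2 scale), minus a constant per gene. For 6812 genes they departed by over 0.01 from a floor set on the merged value, so the floor may act before merging. The authors' table of 4528 genes holds a signed fold score of wild-type over c-kitCre, and 3 members are in it.

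limma 3.58.1 (R 4.3.3; eBayes with trend, two-sided, no covariates, 3 cultures against 3) was run on the deposited log2 values with the constant added back. The test had been planned on scaled values raised to the floor, and the deposited log2 values were used as the authors' own form of these. The filter left out 10023 of 34174 genes, those averaging under 1 scaled read or nowhere over the floor. Adjusted p-values are Benjamini-Hochberg over 24151 genes, with a threshold of 0.05. Fold changes of means use scaled reads, while log2 differences use the floored scale, which understates changes of low genes. The keratin ratio had an exact permutation test.

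The members and lists were chosen with earlier results of these data known, and the lists of cell type markers, keratins, uroplakins, relatives, junction, linker, transition, WT1 target and retinoic acid genes follow textbook knowledge. Named genes are the members, up to 5 genes with the smallest p per list, and the 3 nearest profiles of each tested member. Others are named as exceptions, and 2 genes that the rule would name are not reported. Coordinates and lengths come from GENCODE M21 (mm10; 32874 gene IDs matched, 1300 did not). Near-identical copies were sought with BLAST 2.17.0 (at least 90% identity over at least 100 bases). Promoters are RefSeq, build GRCm38.p6. Tables and plots used Python 3.11.15, scipy 1.17.1, numpy 2.4.6, matplotlib 3.10.9 and pandas 2.3.3. Alternatives were other filters, pseudocounts, scalings and floors, the culture number as a block, wild-type cultures 2 and 3 averaged, and each culture left out.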

Additional observations from a re-analysis of the deposited data

How the results depend on the processing

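Wt1, Msln and Krt8 kept their direction and their call in all 18 alternatives, with adjusted p between 0.00038 and 0.0159, 1.59e-06 and 0.00279, and 0.000778 and 0.0414 (limma). With 1 culture left out, the genes called ranged from 5690 (without wild-type culture 2) to 9064 (without wild-type culture 1), against 8578, and the members called higher ranged from 1 to 2. The number of members called higher was 1 instead of 2, because Tbx18 was lost, with a minimum mean of 10 scaled reads, with pseudocounts of 0.1, 1 or 5, with median centring over all genes, with scaling to the summed raw values, and with wild-type cultures 2 and 3 averaged (chosen after seeing the data). Krt19 changed sign without wild-type culture 1 (0.58, against -0.45), and over all cultures left out it ranged from -1.05 to 0.58. The higher share of all calls was 45.6%, 24.8% with median centring over all genes (2821 higher, 8569 lower; median log2 difference -0.31) and 58.9% with centring on genes of at least 50 scaled reads (5437 and 3789; median 0.26; chosen after seeing the data). With the culture number as replicate block, 8102 genes were called and 1 member was higher. Same-numbered cultures deviated together with correlations of 0.12, -0.01 and 0.19, so the numbers were not taken as pairs. The keratin ratio kept its direction throughout (-4.47 to -3.92). Values near the floor of 4.41 scaled reads limit Wt1, Upk3b, Upk1b, Krt8, Krt18 and Tcf21.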
